A study of Mus musculus with 4 samples.

Results

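The secreted interleukins and colony-stimulating factors were taken as the gene symbols made of Il, a number and at most 1 letter from a to f, together with Csf1, Csf2, Csf3, Osm and Ebi3. The count tables of all 4 libraries held 38 such genes among 24015 symbols. RNA-seq counts came from mouse hematopoietic stem and progenitor cells (HSPC) purified by sorting, with 2 caNIK libraries and 2 control libraries. In caNIK mice, Vav-iCre, a Cre recombinase active in blood cells, removed a stop between loxp sites at the Rosa locus and so switched on a mutant of the kinase NIK that TRAF3 cannot target. The labels call the other mice control and give neither their alleles nor the age, sex, number or pooling of the animals, and they do not name the tissue or the markers used for sorting. Whether separate animals gave the libraries is not stated, so the p-values rest on a spread between samples that may be only technical.

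NIK starts the non-canonical branch of NF-kB signalling, in which p100 is processed and RelB-containing dimers enter the nucleus. Interleukins and colony-stimulating factors are small secreted proteins that tell blood cells to survive, divide or mature. They are made by stromal cells and by mature lymphoid and myeloid cells, and for several of them transcription rises on NF-kB activation in stimulated cells. HSPC are best known as cells that receive these signals, and some have been described to make cytokines themselves.

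Library totals lay between 18574452 and 23162766 counts. Levels are given as CPM, read counts brought to an equal library size, after TMM scaling, which corrects for a few genes taking a large share of the reads. Map3k14, which encodes NIK, had 177 and 192 CPM in caNIK HSPC, against 30.2 and 25.0 CPM in control HSPC. Kit, the receptor that defines most HSPC gates, had 557 and 506 CPM in caNIK HSPC, against 610.0 and 613 CPM in control HSPC. Some other HSPC markers differed. Cd34 had 143 and 84.1 CPM in caNIK HSPC, against 793 and 642 CPM in control HSPC. Ly6a had 99.65 and 46.5 CPM in caNIK HSPC, against 16.7 and 8.13 CPM in control HSPC. In the test given below, 2 of 8 HSPC markers were higher, Ly6a and Gata2, and 2 lower, Cd34 and Runx1. Of all tested genes, 13.8% were higher and 8.21% lower.

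Most ligand genes were silent or scarce, and the few that moved included rises of Osm, Il4, Il13 and Il34 and a fall of Il12a in caNIK HSPC. No read was counted in any library for 10 of the 38 genes, namely Il2, Il3, Il9, Il12b, Il17a, Il17b, Il20, Il22, Il25 and Il31. A count of 0 allows up to 3 counts, which is 0.128 to 0.161 CPM in these libraries, so these genes other than Il22 were below detection at this depth. This limit covers counting error only, and it does not hold for Il22, whose reads may be shared with a near-identical copy. For Il31 the limit may cover only exon sequence outside the opposite-strand gene Lrrc43, also at 0, as the strand setting is not given. The undetected share was 26.3% of the ligand genes, against 24.9% of all symbols. A further 6 ligand genes, Il17c, Il19, Il21, Il24, Il33 and Csf3, had at most 3 counts in every library, and 6 others, Csf2, Il5, Il10, Il17d, Il17f and Il27, had more but were too scarce to be tested.

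The remaining 16 ligand genes entered the test, of which 4 were higher and 1 lower in caNIK HSPC at an adjusted p under 0.05 (edgeR's quasi-likelihood test with Benjamini-Hochberg adjustment over 14191 genes). Of the tested ligands 25% were higher and 6.25% lower, against 13.8% and 8.21% of all tested genes. The median log2 fold change was 1.0 over the tested ligands and 0.004 over all tested genes, also with Il34 at its bound. Genes such as Il13 and Il34 entered the test only through their caNIK reads, so the share and the median over the tested ligands support nothing about the ligands as a group. The number of higher ligands was 2 without caNIK replicate 1 and 1 without caNIK replicate 2. The number of lower ligands was 2 without caNIK replicate 1, without control replicate 2, or with the replicate number as a block.

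**Figure D1:**
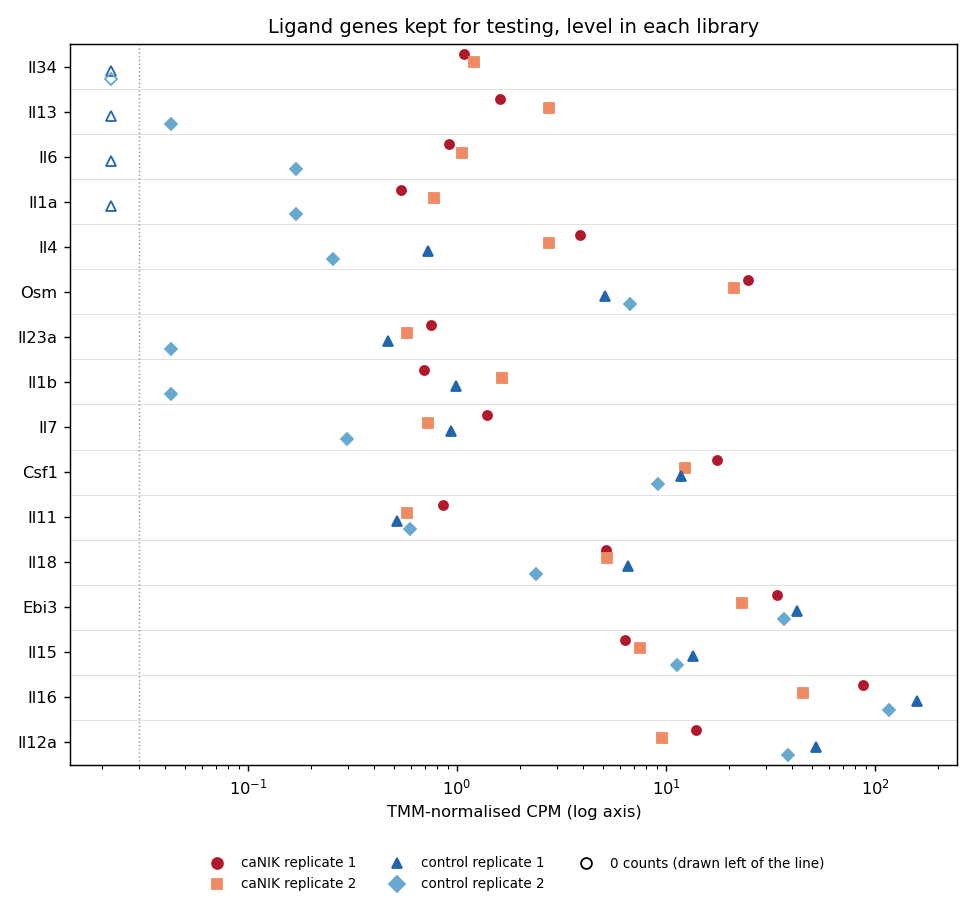
Level of the 16 tested ligand genes in each library, as TMM-normalised CPM on a log axis, with caNIK libraries in red and orange and control libraries in blue; open symbols left of the dotted line are counts of 0. Osm and Il4 lie to the right in both caNIK libraries, Il34 has no control read, and Il12a lies to the left in both caNIK libraries.

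Levels of different genes were compared per kilobase of exon. By this measure Ebi3 ranked highest in caNIK HSPC at 24.8 CPM per kb, followed by Osm at 10.1, Il16 at 8.41 and Il12a at 6.91 CPM per kb. In control HSPC the order was Ebi3 at 34.2, Il12a at 26.5 and Il16 at 17.5 CPM per kb, with Osm at 2.59 CPM per kb. In caNIK HSPC the libraries of Osm, 10.8 and 9.29 CPM per kb, lay within those of Il16, 11.1 and 5.73 CPM per kb, so these neighbours in the order did not differ beyond their spread. Osm was the only one of these genes to rise.

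Oncostatin M, encoded by Osm, is a cytokine of the interleukin-6 family that signals through the shared chain Il6st. Osm had 24.6 and 21.1 CPM in caNIK HSPC, against 5.08 and 6.69 CPM in control HSPC. Both caNIK libraries stood above both control libraries, with means of 22.9 ± 2.49 and 5.88 ± 1.14 CPM (SD, n = 2 each). The log2 fold change was 1.96 ± 0.28 (SE; edgeR adjusted p = 0.00475). Of all tested genes, 33.2% lay higher in both caNIK libraries than in both control libraries, which makes such separation common here. In bulk samples such as these, more cells of a type and more RNA per cell cannot be told apart. In the RefSeq gene order Osm lies between Castor1, listed in these files as Gatsl3, and Lif, and all these neighbours were higher in caNIK HSPC. Lif, a related cytokine that also uses Il6st, had 24.4 and 20.4 CPM in caNIK HSPC, against 0.778 and 0.468 CPM in control HSPC (log2 fold change 5.17 ± 0.40, edgeR adjusted p = 0.000473). Gatsl3, whose product senses arginine for mTORC1, had 10.7 and 8.05 CPM in caNIK HSPC and 2.02 and 1.96 CPM in control HSPC (edgeR adjusted p = 0.0104). Gatsl3 was named after its values were seen.

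Markers of some other cells that could be in the sort were higher in caNIK HSPC, as were Osm and the other ligands that rose. Of 7 dendritic cell markers, 4 were higher and 0 lower, with a summed level of 686 and 699 CPM in caNIK HSPC, against 71.5 and 71.6 CPM in control HSPC. Most of that sum was Fscn1, at 598 and 634 CPM in caNIK HSPC and 51.7 and 51.8 CPM in control HSPC. Of 9 tested monocyte and macrophage markers, 1 was higher, Lyz2, and 0 lower, with a summed level over the list of 219 and 431 CPM in caNIK HSPC, against 103 and 151 CPM in control HSPC. Of 7 NK and innate lymphoid markers, 1 was higher, Ncr1, and 0 lower, with a summed level of 59.8 and 20.0 CPM in caNIK HSPC, against 16.3 and 3.32 CPM in control HSPC. With 13.8% of all tested genes higher and 8.21% lower, the monocyte and NK counts do not stand out. Of 10 stromal and endothelial markers 0 passed, with summed levels of 260 and 175 CPM in caNIK HSPC and 84.6 and 217 CPM in control HSPC. Of 6 B cell markers 1 was higher and 1 lower, and of 5 eosinophil markers 1 was higher and 1 lower. No marker of these lists was at 0 in all 4 libraries. The part of any of these cells in the level of Osm was not tested.

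The interleukin-6 family ligands Il6 and Il11 had few reads and did not pass. Il6, the acute-phase cytokine, had 17 and 22 counts in caNIK HSPC, against 0 and 4 counts in control HSPC. The groups did not overlap, but the log2 fold change of 3.36 ± 1.14 did not pass (edgeR adjusted p = 0.0825), and it passed without control replicate 2, the only control library with reads (adjusted p = 0.0377). Il11, a stromal cytokine of this family, had 16 and 12 counts in caNIK HSPC and 10 and 14 counts in control HSPC, with overlapping CPM. Among related cytokines outside the rule, Clcf1, also of this family, had 4.02 and 1.64 CPM in caNIK HSPC, against 11.7 and 8.60 CPM in control HSPC, and was lower (edgeR adjusted p = 0.0463). That call was lost without caNIK replicate 2, without control replicate 1 or with library totals as the scale. The Flt3 ligand gene Flt3l was higher, at 26.1 and 27.0 CPM in caNIK HSPC against 8.71 and 10.4 CPM in control HSPC (edgeR adjusted p = 0.00706). Of 15 such cytokines, 7 were tested, of which 2 were higher, Lif and Flt3l, and 1 was lower, against 13.8% and 8.21% of all tested genes.

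Cytokines of the interleukin-12 family are pairs of chains. The Il12a chain joins the Il12b chain in interleukin-12 and Ebi3 in interleukin-35, the Il23a chain joins Il12b in interleukin-23, and the Il27 chain joins Ebi3 in interleukin-27. Il12a had 13.95 and 9.54 CPM in caNIK HSPC, against 51.8 and 38.3 CPM in control HSPC. Every caNIK value lay below every control value, with means of 11.8 ± 3.12 and 45.1 ± 9.56 CPM (SD, n = 2 each). Il12a fell by 1.94 ± 0.27 on the log2 scale (edgeR adjusted p = 0.00425) and was the single ligand gene to pass as lower. Of all tested genes, 31.6% lay lower in both caNIK libraries than in both control libraries.

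The partner chains of Il12a did not pass or were not detected. Ebi3 had 34.0 and 23.2 CPM in caNIK HSPC, against 42.3 and 36.6 CPM in control HSPC, with no overlap and a log2 fold change of -0.46 ± 0.24 (edgeR adjusted p = 0.212). Il12b had 0 counts in all 4 libraries. The Il23a chain had 14 and 12 counts in caNIK HSPC and 9 and 1 counts in control HSPC, and did not pass (edgeR adjusted p = 0.407). The Il27 chain had 15 and 10 counts in caNIK HSPC and 6 and 8 counts in control HSPC, too few to be tested. In the annotation, exons of Ebi3 overlap the opposite-strand gene Gm16712 and exons of Il27 overlap Apobr. Whether the counting used strand is not given in the sources, and without strand the reads of such a pair cannot be told apart.

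**Figure D2:**
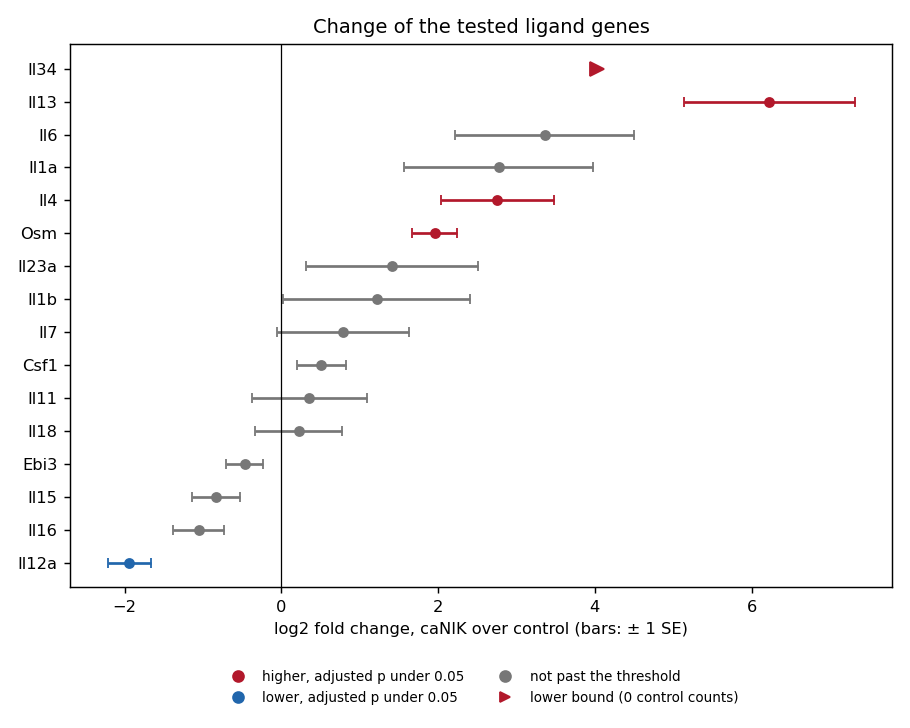
Log2 fold change (caNIK over control) of the 16 tested ligand genes, with bars of 1 SE; red marks genes past the threshold as higher, blue as lower, grey not past it, and the triangle is the lower bound for Il34, which had no control read. Il12a lies at -1.94 and Osm at 1.96, with shorter bars than the genes of few reads such as Il13, Il6 and Il1a.

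Il4 and Il13, the type 2 cytokines that drive IgE responses and are made by T helper cells, mast cells and basophils, were higher in caNIK HSPC. Il4 had 72 and 57 counts, or 3.86 and 2.75 CPM, in caNIK HSPC, against 14 and 6 counts, or 0.726 and 0.256 CPM, in control HSPC. Its log2 fold change was 2.76 ± 0.72 (SE; edgeR adjusted p = 0.0363). The call for Il4 was lost without caNIK replicate 1, without caNIK replicate 2 or without control replicate 2 (adjusted p = 0.14, 0.0862 and 0.0979). Il13 had 30 and 57 counts in caNIK HSPC, against 0 and 1 counts in control HSPC, which is a 94.5-fold ratio (95% counting interval 16.5 to 3774; edgeR adjusted p = 0.0094). Il13 did not pass without caNIK replicate 2 (adjusted p = 0.0716). Control HSPC thus held nearly all of their reads for this pair in Il4.

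In the RefSeq order Il4 and Il13 are adjacent, with Kif3a on the Il4 side and Rad50 on the Il13 side, and Il5 lies beyond Rad50. Kif3a, a kinesin gene, had 23.9 and 19.9 CPM in caNIK HSPC and 21.5 and 22.9 CPM in control HSPC (edgeR adjusted p = 0.965). Rad50, a DNA repair gene that carries regulatory elements of this cytokine locus, had 121 and 141 CPM in caNIK HSPC and 159 and 144 CPM in control HSPC (edgeR adjusted p = 0.399). Il5, the eosinophil growth factor, had 3 and 1 counts in caNIK HSPC and 5 and 3 counts in control HSPC, too few to be tested. Irf1, the next gene beyond Il5, was higher, at 227 and 240 CPM in caNIK HSPC against 93.3 and 67.1 CPM in control HSPC (edgeR adjusted p = 0.00272). Reads of Il4, Il13 and Irf1 were thus more frequent in caNIK HSPC, whereas neither Kif3a nor Rad50 passed the test. Kif3a, Rad50 and Irf1 were named after their values were seen. The 250 bases before the start of Il4 and Il13 are shown because these adjacent ligand genes rose together, from RefSeq on GRCm38.p6, 5′ to 3′ on the minus strand. For Il4 the farther upstream of its listed starts is shown, chr11:53618666-53618915, and for Il13 chr11:53634703-53634952. Neither holds a match to the kappaB consensus or to the AP-1 motif TGANTCA, so neither has capitals.

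Il4: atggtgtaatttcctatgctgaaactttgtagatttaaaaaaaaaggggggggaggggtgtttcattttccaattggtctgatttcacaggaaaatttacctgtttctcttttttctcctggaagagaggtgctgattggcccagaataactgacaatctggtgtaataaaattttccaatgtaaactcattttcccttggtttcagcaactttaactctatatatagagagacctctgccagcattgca

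Il13: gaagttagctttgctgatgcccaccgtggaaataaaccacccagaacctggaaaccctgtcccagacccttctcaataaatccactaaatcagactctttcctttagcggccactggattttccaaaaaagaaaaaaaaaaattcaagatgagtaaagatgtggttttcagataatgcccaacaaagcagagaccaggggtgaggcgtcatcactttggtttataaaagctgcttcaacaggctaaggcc

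Most markers of mast cells and basophils were higher in caNIK HSPC, beside the dendritic markers given with Osm. Of 11 tested markers, 9 were higher in caNIK HSPC and 0 lower, against 13.8% and 8.21% of all tested genes. The summed level of the markers ran from 1402 to 2866 CPM in caNIK HSPC, against 73.7 to 142 CPM in control HSPC. None of the markers was at 0 across a group, and the mast cell tryptase gene Tpsb2 reached 704 and 356 CPM in caNIK HSPC against 7.78 and 4.39 CPM in control HSPC. Of the T cell markers, 0 of 7 passed in either direction, with a summed level of 56.3 to 134 CPM in caNIK HSPC and 29.1 to 75.8 CPM in control HSPC. Within the caNIK libraries, each mast cell and basophil marker and Il4 were higher in replicate 1, and Il13 was higher in replicate 2. Each T cell, B cell and NK marker was also higher in caNIK replicate 1, so this order was not particular to mast cells and basophils. In control HSPC, Il4 and each T cell marker were higher in replicate 1, whereas the mast cell and basophil markers went both ways. The part of any of these cells in the levels of Il4 and Il13 was not tested.

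**Figure D3:**
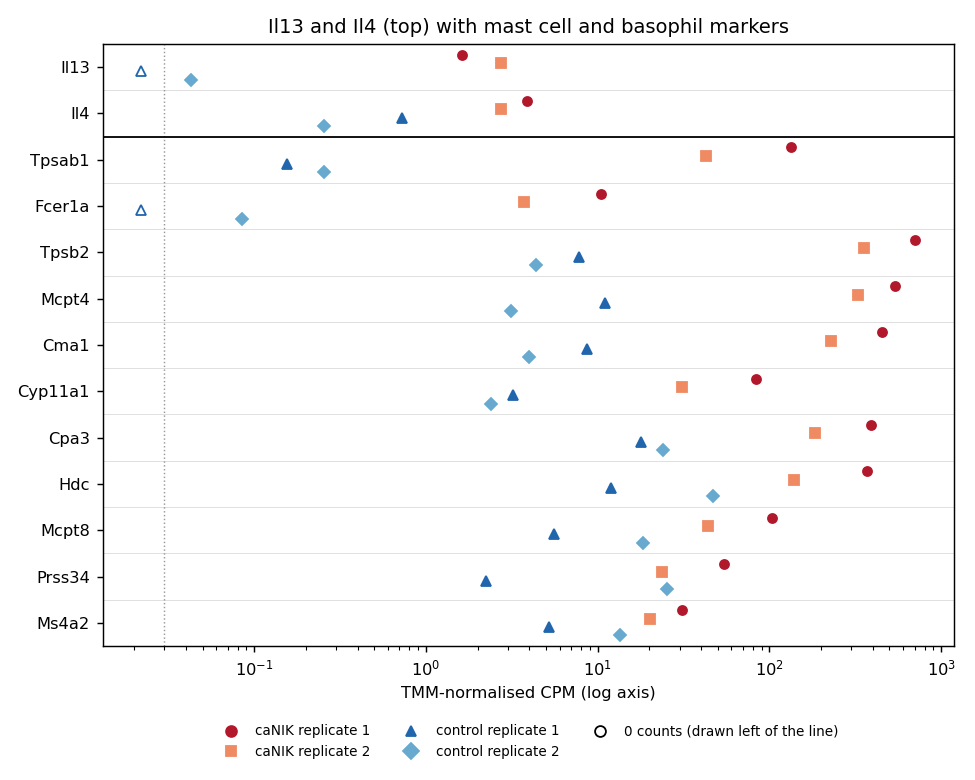
Level of Il13 and Il4 (top rows) and of 11 mast cell and basophil markers in each library, as TMM-normalised CPM on a log axis; open symbols left of the dotted line are counts of 0. The markers lie farther right in both caNIK libraries, except that Prss34 in caNIK replicate 2, at 23.6 CPM, is below control replicate 2, at 25.3 CPM.

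Other ligands of type 2 immunity were near or below detection. Il33, the alarmin that binds Il1rl1, had 0 and 0 counts in caNIK HSPC and 0 and 1 counts in control HSPC. Il9, Il25 and Il31 had 0 counts in all 4 libraries, and Tslp, a related epithelial cytokine, had under 1 CPM in each.

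The ligands of the macrophage receptor Csf1r are Csf1 and Il34. Il34 had 20 and 25 counts, or 1.07 and 1.21 CPM, in caNIK HSPC, against 0 and 0 counts in control HSPC. It was at least 16.3-fold higher in caNIK HSPC when the control group is set at the floor of 3 counts over both libraries (edgeR adjusted p = 0.017). Among all tested genes, 1.13% were higher with no control read. The call for Il34 was lost without caNIK replicate 1 (adjusted p = 0.0711) and without caNIK replicate 2 (adjusted p = 0.11). Of the markers given with Osm and Il4, 4 of 7 dendritic markers and 9 of 11 mast cell and basophil markers were higher too. So was 1 marker each of the monocyte and NK lists. The part of such cells in the level of Il34 was not tested. In the annotation, exons of Il34 overlap opposite-strand transcripts that the count tables do not list.

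Csf1, the main growth factor of macrophages, had 17.4 and 12.3 CPM in caNIK HSPC, against 11.8 and 9.11 CPM in control HSPC, and did not pass (log2 fold change 0.51 ± 0.31, edgeR adjusted p = 0.294). Csf1 was the more abundant of the pair, at 2.82 CPM per kb in caNIK HSPC against 0.581 CPM per kb for Il34. Csf2, which encodes GM-CSF, had 16 and 10 counts in caNIK HSPC, against 0 and 1 counts in control HSPC. Its ratio was 28.2 (95% counting interval 4.64 to 1157), but it was too scarce for the main test and did not pass when every gene with a read was tested (edgeR adjusted p = 0.076). Il3, the neighbour of Csf2 and a multilineage growth factor, had no read in any library. Csf3, which encodes G-CSF, had 2 and 0 counts in caNIK HSPC and 0 and 0 counts in control HSPC.

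Within the interleukin-1 family, the ligand genes did not pass. Il1a had 10 and 16 counts in caNIK HSPC, against 0 and 4 counts in control HSPC (edgeR adjusted p = 0.153). Il1b had 13 and 34 counts in caNIK HSPC and 19 and 1 counts in control HSPC, with overlapping groups (edgeR adjusted p = 0.519). Both genes share exonic sequence with listed opposite-strand genes, Gm14023 for Il1a and Il1bos for Il1b. Il18, made as a precursor that caspase 1 cleaves, had 5.15 and 5.20 CPM in caNIK HSPC and 6.53 and 2.39 CPM in control HSPC, and the control libraries lay on either side of both caNIK libraries (edgeR adjusted p = 0.817).

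Several genes that block or process these ligands passed the test. Of 16 antagonists and processing genes, 13 were tested, of which 6 were higher and 3 lower in caNIK HSPC. Of all tested genes, 13.8% were higher and 8.21% lower. The median log2 fold change of the list was 0.07. The higher genes included Il18bp, the binding protein that neutralises interleukin-18, at 15.2 and 15.8 CPM in caNIK HSPC against 3.47 and 2.13 CPM in control HSPC (edgeR adjusted p = 0.00552). Il1rn, the interleukin-1 receptor antagonist, had 3.11 and 7.61 CPM in caNIK HSPC and 0 and 0.341 CPM in control HSPC (edgeR adjusted p = 0.0236), a call lost without caNIK replicate 2 (adjusted p = 0.12). Il1r2, the decoy receptor, had 5.47 and 18.8 CPM in caNIK HSPC and 0.726 and 0.298 CPM in control HSPC (edgeR adjusted p = 0.00886). Casp1, which cleaves the precursors of Il1b and Il18, had 73.2 and 66.3 CPM in caNIK HSPC and 28.2 and 24.3 CPM in control HSPC (edgeR adjusted p = 0.00242). Casp4 had 69.7 and 71.0 CPM in caNIK HSPC and 10.0 and 6.98 CPM in control HSPC (edgeR adjusted p = 0.000448). Nlrp3 had 3.43 and 3.95 CPM in caNIK HSPC and 0.104 and 0.681 CPM in control HSPC (edgeR adjusted p = 0.0388). Its log2 fold change ran from 2.41 to 5.07 over the alternatives. The Nlrp3 call was lost without caNIK replicate 1, without caNIK replicate 2 or without control replicate 1. The lower genes were Il22ra2, a soluble receptor for interleukin-22, and the neutrophil proteases Elane and Prtn3. Il22ra2 had few reads, 2 and 2 counts in caNIK HSPC and 23 and 18 counts in control HSPC (edgeR adjusted p = 0.0475). Elane had 4.56 and 8.77 CPM in caNIK HSPC and 23.6 and 110.0 CPM in control HSPC (edgeR adjusted p = 0.0204), and did not pass without caNIK replicate 1 (adjusted p = 0.0753) or with limma-voom. Prtn3 had 8.43 and 21.3 CPM in caNIK HSPC and 94.4 and 238 CPM in control HSPC (edgeR adjusted p = 0.00763).

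Ligands of receptors with the common gamma chain Il2rg were low or did not pass, apart from Il4. Il15, which sustains NK cells and memory T cells, had 6.39 and 7.52 CPM in caNIK HSPC, against 13.5 and 11.3 CPM in control HSPC. Both caNIK values lay below both control values, but the log2 fold change of -0.83 ± 0.31 did not pass (edgeR adjusted p = 0.105). Il7, the lymphoid growth factor made mainly by stroma, had 26 and 15 counts in caNIK HSPC and 18 and 7 counts in control HSPC, with overlapping CPM. Il21 had 3 and 0 counts in caNIK HSPC and 1 and 1 counts in control HSPC.

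Il16, whose product is cleaved to a chemoattractant for CD4 cells, had the most reads of all ligand genes, with 1626 and 936 counts in caNIK HSPC and 3062 and 2721 counts in control HSPC. Its levels were 87.3 and 45.1 CPM in caNIK HSPC, against 159 and 116 CPM in control HSPC, with no overlap. The log2 fold change of -1.05 ± 0.32 did not pass (edgeR adjusted p = 0.0611), but Il16 passed as lower with the replicate block (adjusted p = 0.00207) and in 5 other alternatives. Its exons overlap Stard5 on the opposite strand, which had 13.1 and 8.63 CPM in caNIK HSPC and 7.47 and 10.2 CPM in control HSPC.

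The interleukin-10 and interleukin-17 families were near or below detection. Il10, an anti-inflammatory cytokine, had 7 and 5 counts in caNIK HSPC, against 0 and 0 counts in control HSPC, which is at least 4.34-fold higher against the same floor. It was too scarce for the main test and did not pass when every gene with a read was tested (edgeR adjusted p = 0.162). Its neighbours Il19, Il20 and Il24 had at most 3 counts in any library. Il22 and its near-identical copy Iltifb were listed at 0. How reads matching both copies were counted is not given, so this 0 says nothing about absence. Il17f had 8 counts in caNIK replicate 1 and 0 in the other libraries, and Il17a and Il17b had none. The Il17c and Il17d genes had at most 4 counts in any library.

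**Figure D4:**
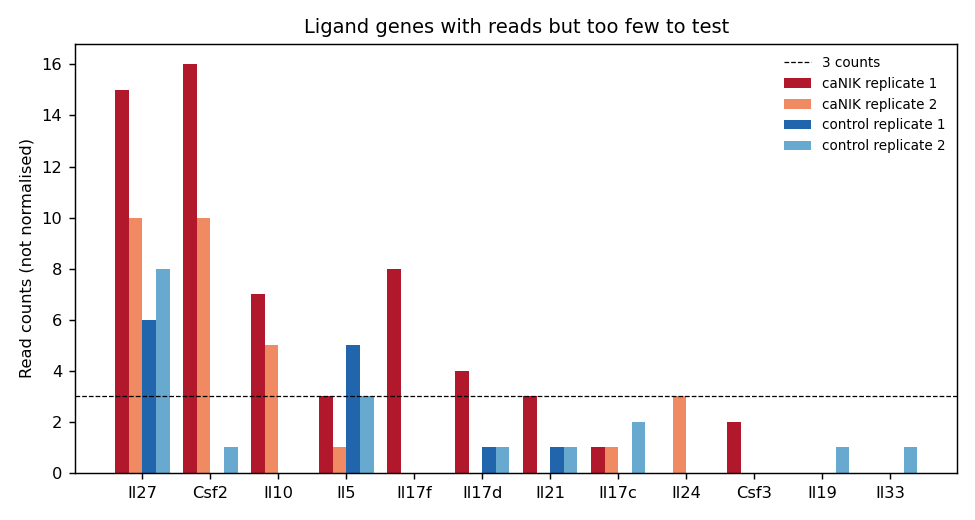
Unnormalised read counts of the 12 ligand genes that had reads but too few to be tested, in each library, with a dashed line at 3 counts. Csf2 and Il10 have counts above the line in both caNIK libraries and in neither control library, Il27 is above it in all 4, and Il17f is above it in caNIK replicate 1 alone.

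Receptors of these ligands changed in both directions. Of 40 receptor genes with a ligand among the 38 genes, 38 were tested, of which 9 were higher and 6 lower in caNIK HSPC. Their median log2 fold change was 0.78. Of all tested genes, 13.8% were higher and 8.21% lower. The full list of 46 receptors also holds Kit, Flt3, Crlf2, Ifnlr1, Lifr and Il1rl2, whose own ligands are outside the 38 genes, and 11 of its 44 tested genes were higher and 8 lower. In the full list the count of higher receptors was 16 without caNIK replicate 2 and also 16 without control replicate 1, against 18 with the replicate block. For Il4 and Il13, the shared chain Il13ra1 had 27.6 and 24.5 CPM in caNIK HSPC, against 0.83 and 1.36 CPM in control HSPC (edgeR adjusted p = 0.00052), whereas Il4ra had 49.5 and 49.7 CPM in caNIK HSPC and 60.6 and 55.4 CPM in control HSPC (adjusted p = 0.348). For Osm, Il6st was higher, at 146 and 86.4 CPM in caNIK HSPC against 66.8 and 56.3 CPM in control HSPC (edgeR adjusted p = 0.0495). The Il6st call lay just under the threshold, and it was not followed by gene in the alternatives. The specific chain Osmr had 4 and 2 counts in caNIK HSPC and 0 and 11 counts in control HSPC. The common gamma chain Il2rg had 454 and 387.5 CPM in caNIK HSPC, against 111 and 81.7 CPM in control HSPC (edgeR adjusted p = 0.000877). For Il18, Il18r1 had 425 and 202 CPM in caNIK HSPC, against 6.43 and 4.13 CPM in control HSPC (edgeR adjusted p = 0.000463). For Il33, Il1rl1 had 181 and 144 CPM, against 9.69 and 17.1 CPM (edgeR adjusted p = 0.00067). By contrast, Il18rap did not pass and Il1rap was lower.

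Receptors were also present for ligands that had no read. Il9r, the receptor for interleukin-9, had 338 and 281 CPM in caNIK HSPC, against 6.999 and 5.79 CPM in control HSPC, while Il9 itself was at 0. Csf2rb2, the chain specific to interleukin-3 in mouse, had 184 and 165 CPM in caNIK HSPC and 17.2 and 17.2 CPM in control HSPC, while Il3 was at 0. Csf2rb2 is close in sequence to Csf2rb, and how reads shared by the pair were counted is not given. Csf3r, the G-CSF receptor, went the other way, with 7.995 and 12.5 CPM in caNIK HSPC and 79.7 and 99.3 CPM in control HSPC. For Il34 and Csf1, Csf1r had 40.0 and 74.4 CPM in caNIK HSPC and 22.0 and 40.0 CPM in control HSPC and did not pass (edgeR adjusted p = 0.145). As given above, 9 of 11 mast cell and basophil markers and 4 of 7 dendritic markers were higher in caNIK HSPC. The part of such cells in the levels of the receptors was not tested.

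**Figure D5:**
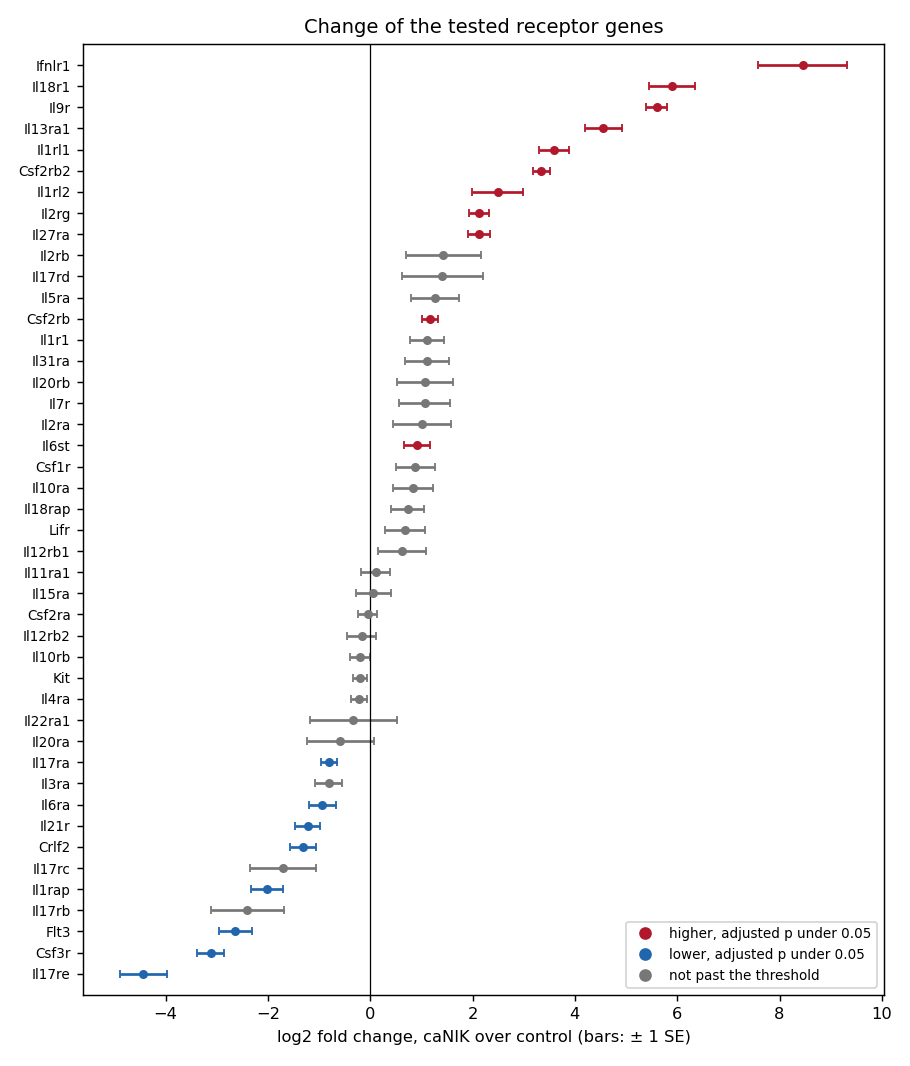
Log2 fold change (caNIK over control) of the 44 tested receptor genes of the full list, with bars of 1 SE; red marks genes past the threshold as higher, blue as lower and grey not past it. Ifnlr1, the interferon lambda receptor with 0 and 3 control counts, lies farthest to the right and Il17re farthest to the left.

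Promoter sequence was at hand in RefSeq on GRCm38.p6 for 27 of the 38 ligand genes, and the 250 bases before each listed start were searched on both strands. The kappaB consensus, the general NF-kB motif, was found for 5 of these genes, namely Csf1, Ebi3, Il6, Il16 and Il19. The AP-1 motif was found for 6 of the 27 genes. Of all 32851 promoters of the table, 3.9% held a kappaB match in the same window and 6.75% held the AP-1 motif. These shares count single starts, whereas a ligand gene with several starts was counted if any of them matched, so the units differ. Of the 5 genes with a kappaB match, Il19 was too scarce to be tested and the others did not pass. Of the 4 genes that rose, Il4 and Il13 had an entry in the table. The promoters of Csf1, Ebi3 and Il6 are shown because they are the tested ligands with a kappaB match at their single listed start. They lie at chr3:107760470-107760719 on the minus strand, chr17:55952373-55952622 on the plus strand and chr5:30012864-30013113 on the plus strand. Capitals mark the kappaB matches, which begin 154 bases before the start of Csf1 and 44 bases before the starts of Ebi3 and Il6, and an AP-1 match at the far end of the Il6 window.

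Csf1: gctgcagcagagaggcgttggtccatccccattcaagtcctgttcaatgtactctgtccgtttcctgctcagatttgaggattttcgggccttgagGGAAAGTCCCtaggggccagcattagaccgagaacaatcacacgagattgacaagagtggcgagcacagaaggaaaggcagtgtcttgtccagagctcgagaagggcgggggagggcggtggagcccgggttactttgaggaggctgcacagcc

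Ebi3: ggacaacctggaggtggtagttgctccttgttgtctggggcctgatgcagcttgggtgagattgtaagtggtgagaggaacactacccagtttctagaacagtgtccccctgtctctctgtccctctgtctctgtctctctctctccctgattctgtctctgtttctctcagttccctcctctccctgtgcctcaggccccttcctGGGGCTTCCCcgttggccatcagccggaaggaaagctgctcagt

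Il6: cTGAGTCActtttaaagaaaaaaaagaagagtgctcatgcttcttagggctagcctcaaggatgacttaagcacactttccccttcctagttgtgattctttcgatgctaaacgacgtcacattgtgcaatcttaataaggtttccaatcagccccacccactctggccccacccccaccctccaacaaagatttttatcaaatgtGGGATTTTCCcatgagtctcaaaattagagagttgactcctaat

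The genes with a kappaB match lay in both directions. As given above, Csf1 and Il6 had higher mean levels in caNIK HSPC, and Ebi3 and Il16 lower ones. None of these differences passed in the main test, and that of Il16 passed in 6 of 11 alternatives. A match is a description of the letters in this window and shows neither binding nor a cause.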

How the data were processed

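For each of the 4 libraries the authors deposited raw read counts by gene symbol, without normalization, per the file headers. Build mm9 and the tools featureCounts 1.5.0, TopHat2 2.1.0, DESeq2 1.10.1 and FastQC appear in the submitters' processing notes, whose text does not tie them to steps. No source used here gives the annotation or the strand setting.

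Groups came from the sample titles. The test was that of edgeR 4.0.16 under R 4.3.3 (filterByExpr with the groups, TMM, glmQLFit, two-sided glmQLFTest, group as the only term, adjusted p threshold 0.05). Standard errors were taken from the F statistic, and mean levels have SD over n = 2 libraries. Ratios for genes of few reads have exact 95% binomial intervals, which cover counting error only. Exon lengths were the merged exons of GENCODE on GRCm38, and promoters and gene order came from RefSeq on GRCm38. That build differs from mm9, so only names, lengths, gene order and promoter sequences were taken from it.

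On counts simulated for caNIK against control, with 200 genes changed in each of 5 simulations and a median of 13932 genes tested, 4.89% of genes changed 1.5-fold, 39.3% at 2-fold and 75.7% at 4-fold were recovered. In the data 22% of tested genes passed, a larger share than was changed in the simulations. The adjusted p depends on that share, so recovery in the data may differ. Alternatives were DESeq2 1.42.0, limma-voom (limma 3.58.1), other scalings and filters, a replicate block and each library left out. The rule named every tested ligand, every untested ligand with over 3 counts and up to 8 genes past the threshold per other list. The ligand genes and all lists were chosen with earlier results of these data known.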

Additional observations from a re-analysis of the deposited data

How the results depend on the processing

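Osm and Il12a kept their direction and stayed past the threshold in all 11 alternatives, with adjusted p up to 0.0141 for Osm and 0.00944 for Il12a. Il16 passed as lower under DESeq2, limma-voom, the filter of at least 1 read in any library, the replicate block, and without caNIK replicate 1 or control replicate 2, with adjusted p from 0.00197 to 0.0904 over its alternatives. The count of lower ligands was therefore 2 in these 6 alternatives, and 1 in the other 5. With 1 library left out, higher ligands ranged from 1 to 4, lower ligands from 1 to 2, higher receptors of the full list from 11 to 16 and lower ones from 7 to 9. Over all genes, these ranges were 1655 to 1968 higher and 858 to 1387 lower. The log2 fold change of Il18 ranged from -0.33 without control replicate 2 (adjusted p = 0.791) to 1.097 without control replicate 1, and the cause was not tested. Il6 also passed under limma-voom (adjusted p = 0.0485).

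The replicate numbers are shared by both groups, but no label says what they mark, and differences between replicates 1 and 2 correlated at 0.213 between the groups across genes. With the replicate block, 2494 genes were higher and 1766 lower, against 1964 and 1165 without it, and the full receptor list had 18 higher and 10 lower, the ligands 4 higher and 2 lower. Of the ligands, the block changed the call of Il16 alone. Library totals as the scale moved the median log2 fold change of all genes to -0.064. With 2 libraries a group and few reads for Il6, Il1a, Il1b, Il7, Il11 and Il23a, a change of 2-fold was often not detectable at this depth.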
